A study of Nothobranchius furzeri with 15 samples.

Results

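Late ageing of skeletal muscle was examined in Nothobranchius furzeri, the turquoise killifish, whose short natural life makes it a model of vertebrate ageing. All fish were of the strain GRZ-AD. The comparison sets 2 muscle libraries of fish aged 14 weeks (libraries 1 and 2), named old in the authors' deposited table, against 2 of fish aged 8.5 weeks (libraries 1 and 3), named adult there. The members were taken by tissue and age label alone, which gives 4 of the 15 libraries of the series. The other 11 are 2 muscle libraries of 3.5 weeks, which entered the fit to help estimate the spread, and 9 brain libraries. No treatment or genotype difference was labelled, and fish of all ages were of that strain. Tissue was dissected and frozen, and ribosome-depleted total RNA was sequenced, per the labels' protocols. Whether libraries came from separate fish is not stated, so the spread between samples behind each p-value may be technical.

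Circular RNAs (circRNAs) arise by back-splicing, in which a downstream splice site is joined to one upstream of it, and a read across that junction counts as a circular read. They lack free ends, are degraded slowly, and are known to build up with age in non-dividing tissue of several animals, mostly neural tissue. Skeletal muscle consists of long post-mitotic fibres in which giant sarcomere proteins such as titin and nebulin set the length of the contractile unit, and transcripts of such many-exon genes are frequent sources of circles.

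Of 1810 circRNAs in the deposited tables, 831 had at least 1 read in the 4 libraries, with a median of 5 reads each. Of these, 447 were read at both ages, 231 at 8.5 weeks alone and 153 at 14 weeks alone. The muscle identity of the libraries was plain in the linear reads, the reads of the ordinary transcript counted at the same positions. The 7 muscle-defining host genes in the table summed to between 253710 and 312048 linear CPM (reads scaled to the effective linear library size, as for all CPM here) in the 4 libraries. The 4 neuron and Schwann cell markers in the table summed to between 111 and 310 CPM, and none of them was at 0 in all 4 libraries. No blood or macrophage marker was a host in the table, so these cells could not be checked.

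The libraries of 8.5 weeks held 4269 and 3316 circular reads beside 122098 and 100841 linear reads. Those of 14 weeks held 1830 and 1947 circular reads beside 97187 and 76515 linear reads. Replicate libraries of these ages differed from each other by more than sampling noise, so each counted as 1 sample. The chi-square per degree of freedom was 3.49 at 8.5 weeks and 2.2 at 14 weeks for circular reads. For linear reads it was 3.24 and 3.50. At 1 position, in LOC107389481, the linear count lay between 7824 and 7897 in all 6 muscle libraries, whatever their totals. Another, unannotated.138, lay between 3607 and 3823. The 7897 was also the largest linear count of any position in any library of the series. Whether linear counts were capped was not tested, so the shares and library sizes built on the highest counts carry that limit. The 10 positions with the most linear reads held 39.4% to 45.6% of the linear reads in the 4 libraries.

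The circular share, circular reads as a percentage of circular plus linear reads, was lower at 14 weeks in both libraries. At 8.5 weeks it was 3.38% (exact binomial 95% interval 3.28 to 3.48) and 3.18% (3.08 to 3.29). At 14 weeks it was 1.85% (1.77 to 1.93) and 2.48% (2.37 to 2.59). The ages did not overlap, and the spread was wider at 14 weeks. The means were 3.28% ± 0.138 at the younger and 2.16% ± 0.448 at the older age (SD, n = 2 each), a difference of -1.12 percentage points. The two-sided exact permutation p was 0.333, the smallest that 2 against 2 libraries allow, so this design cannot reach a p under 0.05. Without the 10 positions with the most linear reads the difference was -1.55 points, and it ranged from -0.799 to -1.43 with a library left out. Both ages lay above the 3.5 week libraries, which had 1.38% and 1.39%. Intervals cover counting error only.

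The number of different circRNAs differed less than its spread. Thinned to 1830 circular reads per library, the 8.5 week libraries had 405 ± 38.2 circRNAs with a read and the 14 week libraries 417 ± 19.7 (SD, n = 2 each; two-sided exact permutation p = 1). Unthinned, the libraries of 8.5 weeks held 550 and 429 circRNAs and those of 14 weeks 403 and 441. The 10 most read circRNAs held 25.3% of circular reads at 8.5 weeks and 25.2% at 14 weeks.

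Circular reads were tested for the 292 circRNAs with 10 or more reads over the 6 muscle libraries, with library sizes taken from the linear reads. None of the 292 (0%) passed an adjusted p under 0.05 in edgeR's quasi-likelihood test, where 3 had an unadjusted p under 0.05, all lower at 14 weeks. DESeq2 also called 0 (7 unadjusted). The log2 change was below 0 for 207 and above 0 for 81, with a median of -0.56. In 89 circRNAs (30.5% of those tested) both 14 week libraries lay below both 8.5 week libraries in CPM, and in 20 (6.85%) both lay above. The filter counts raw reads, of which the 8.5 week libraries had the most, so circles high at 8.5 weeks pass it more readily. With no filter on reads, 521 of 887 were below 0 and 310 above, with a median of -0.48. The balance also rests on the scaling. With factors from the circular reads themselves, which set the bulk of circRNAs level, the median was -0.06, with 150 below 0 and 138 above, so directions of single circRNAs below are relative to linear reads. It also moved with the 14 week library kept: the median was -0.97 without library 2 and -0.45 without library 1.

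**Figure D1:**
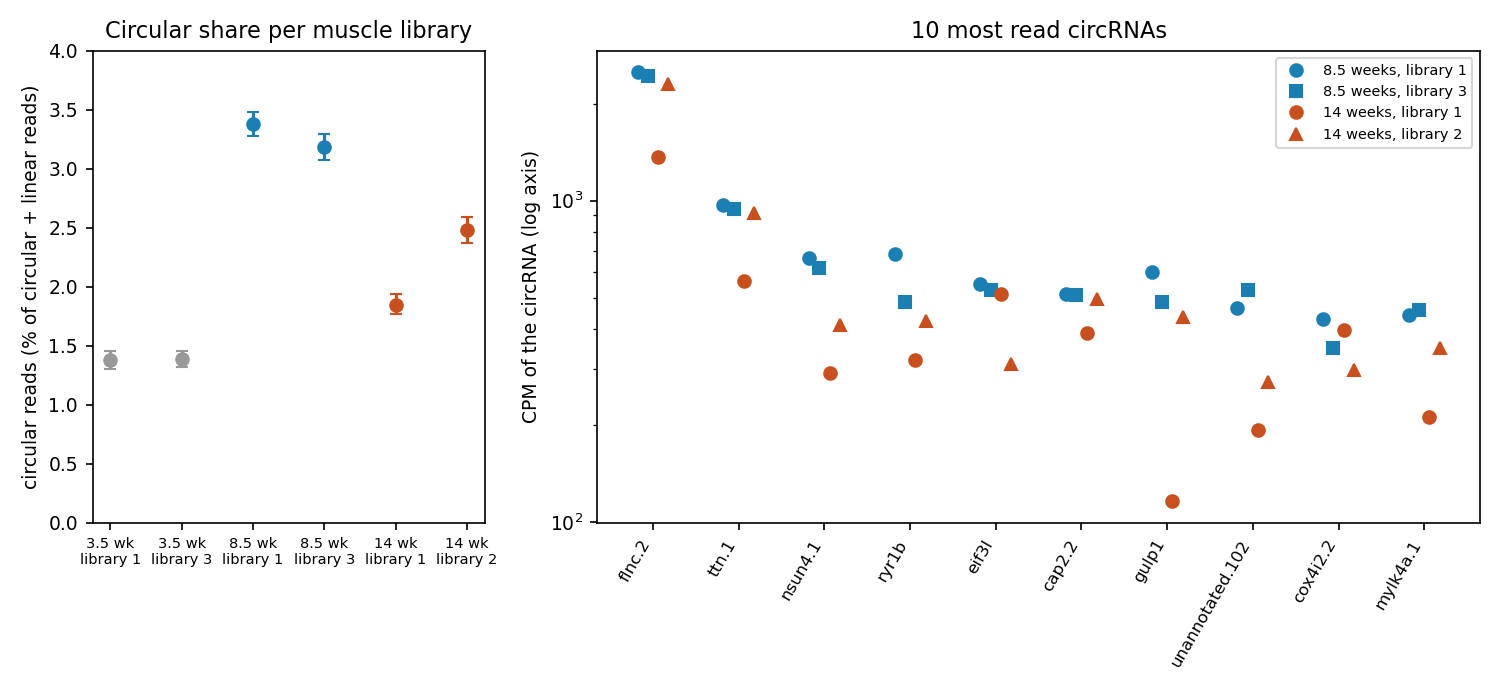
Left, circular reads as a percentage of circular plus linear reads in each of 6 muscle libraries, with exact binomial 95% intervals as bars. Right, CPM on a log axis of the 10 most read circRNAs, 1 point per library, scaled by linear reads. Both 14 week libraries lie below both 8.5 week libraries in 9 of 10, against 30.5% of all tested circRNAs, and cox4i2.2 overlaps. The 10 were ranked by raw reads, of which the 8.5 week libraries had more, and the 30.5% includes circRNAs with far fewer reads. The 9 of 10 is therefore no separate evidence.

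The 10 most read circRNAs were the best measured, and all 10 had a log2 change below 0, by less than 2 standard errors in 9 of them. They were ranked by raw reads, of which the 8.5 week libraries had more, which favours circles high at 8.5 weeks. Of the circRNAs with 30 or more reads, 75 of 90 were below 0, against 207 of all 292. The most read was flnc.2, from filamin C, an actin cross-linker of the Z-disc (chromosome 2, 1030947 to 1031338; 1 end outside annotated exons). Its reads were 352 and 272 in the 8.5 week libraries, against 141 and 186 in those of 14 weeks. In CPM that was 2511 and 2436, then 1366 and 2309, so library 2 of 14 weeks came close to the 8.5 week level and library 1 did not. The log2 change was -0.43 (SE 0.36), which was 0.06 with factors from the circular reads. The circular share at the position was 51.3% and 43.7%, then 44.1% and 50.3%, which overlap.

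The circRNA ttn.1, from titin, the spring of the sarcomere (chromosome 10, 31623386 to 31628418), had 136 and 105 reads, then 58 and 74 (log2 -0.37, SE 0.45). In CPM library 2 of 14 weeks, at 918, was close to the younger ones at 970 and 940, and library 1 was at 562. Its share of the reads at the position was 3.25% and 2.86% at 8.5 weeks and 1.65% and 2.71% at 14 weeks. The circRNA nsun4.1, from an RNA methyltransferase of mitochondrial ribosomes (chromosome 5, 47974111 to 47974486), had 93 and 69 reads, then 30 and 33 (log2 -0.88, SE 0.53). In CPM nsun4.1 stood at 663 and 618, then 291 and 410, while its share was 65.0% and 59.5%, then 47.6% and 66.0%, which overlap. The ryanodine receptor circle ryr1b, whose host opens the calcium store of the fibre (chromosome 7, 41676320 to 41677029), had 96 and 54 reads, then 33 and 34 (log2 -0.66, SE 0.49).

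Of the others, gulp1, whose host encodes an adaptor for engulfing cell remains (chromosome 9, 3411254 to 3411821), differed most between the 14 week libraries, with 12 and 35 reads after 84 and 54 (log2 -0.99, SE 0.64). The circRNA unannotated.102, with no annotated host (chromosome 6, 38382734 to 38404700), had 65 and 59 reads, then 20 and 22 (log2 -1.09, SE 0.52). Those of mylk4a.1, from a kinase of the myosin light chain kinase family, were 62 and 51, then 22 and 28 (log2 -0.69, SE 0.50). The remaining 3 were nearer to level. The circRNA eif3l, of a translation initiation factor subunit, had 77 and 59, then 53 and 25 (log2 -0.38). The circRNA cap2.2, of an actin regulator of striated muscle, had 72 and 57, then 40 and 40 (log2 -0.21). The circRNA cox4i2.2, of a cytochrome c oxidase subunit, had 60 and 39, then 41 and 24 (log2 -0.16).

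Among these are 3 of the 4 circRNAs that passed the threshold between 3.5 and 8.5 weeks in the same fit, gulp1, cap2.2 and unannotated.102. The fourth is atp2a1.3, whose host is the calcium pump of fast fibres (chromosome 6, 42628533 to 42633424). Its reads were 2 and 1 at 3.5 weeks, 50 and 21 at 8.5 weeks, then 13 and 15 (log2 -0.81, SE 0.68, for the last step). At 3.5 weeks gulp1 had 3 and 1 reads, cap2.2 had 4 and 1, and unannotated.102 had 6 and 9. In all 4, each 14 week library lay between those of the other ages in CPM. For atp2a1.3, library 2 of 14 weeks was almost level with library 3 of 8.5 weeks. The 4 were picked for being high at 8.5 weeks, which favours lower values at 14 weeks, so this position is no separate evidence. Both steps share the 8.5 week libraries.

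**Figure D2:**
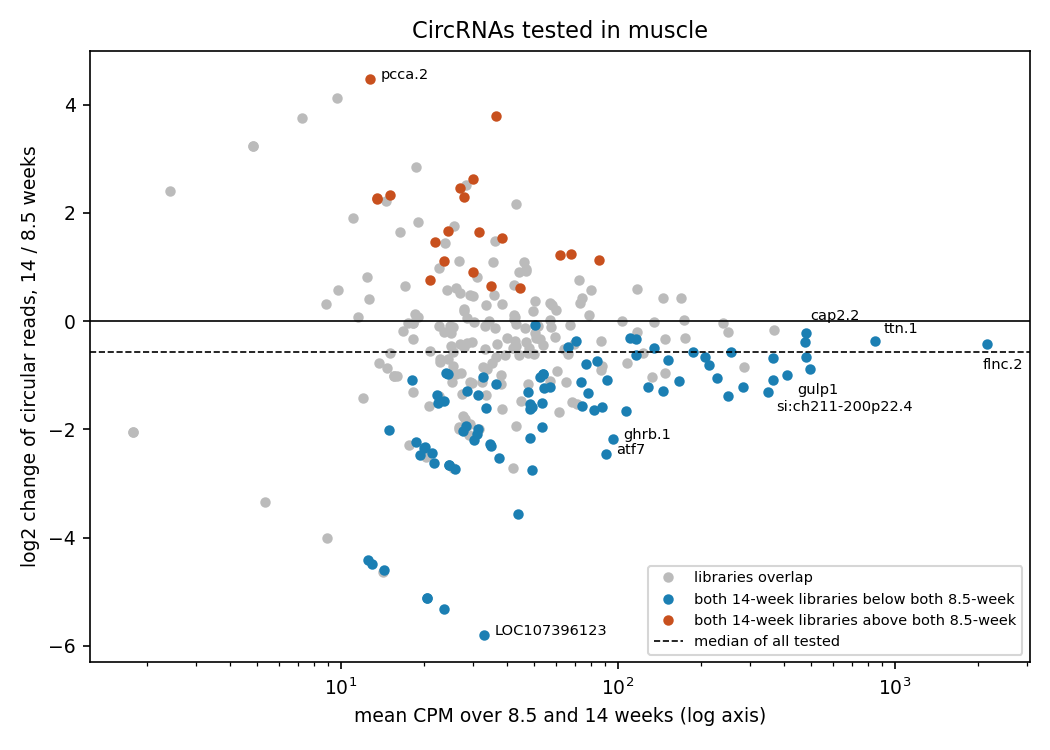
Log2 change of circular reads from 8.5 to 14 weeks against mean CPM on a log axis for the tested circRNAs, coloured by whether the libraries of the ages overlap. The dashed line is the median of all tested, -0.56, and the most read circRNAs to the right lie near it, while the large changes of either sign lie at few reads.

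The smallest p-values for circular reads belonged to circles that were lower at 14 weeks. The circRNA of LOC107396123 (chromosome 12, 10720215 to 10724797) had 11 and 6 reads in the younger libraries and 0 and 0 in the older ones, at least 4.14-fold lower by a floor of 3 counts over the group (unadjusted p = 0.0377 in edgeR, adjusted 1.00). The floor stands in for the 0, and counting error of the other age is left out. Each at-least fold given here is therefore no confidence bound. Linear reads at the LOC107396123 position were 16 and 16, then 13 and 9. The circRNA si:ch211-200p22.4 (chromosome 1, 11824379 to 11846908) had 66 and 58 reads, then 11 and 24 (log2 -1.31, SE 0.59). Linear reads there were 89 and 64, then 32 and 28, and its share was 42.6% and 47.5%, then 25.6% and 46.2%. The circRNA rilpl1.1, from a gene related to the Rab effector RILP (chromosome 8, 6268030 to 6269829), had 56 and 44 reads, then 16 and 15 (log2 -1.22, SE 0.55), and its share was 39.4% and 44.9%, then 27.1% and 26.3%. In CPM these circles were lower in both 14 week libraries, as were 30.5% of all tested circRNAs. They were picked by small p, so their separation is no separate evidence. The share of si:ch211-200p22.4 overlapped between the ages.

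In 4 circRNAs, 10 or more raw reads at 8.5 weeks stood against 0 at 14 weeks, and in none the reverse. Beside LOC107396123 these were obsl1b.1, from an obscurin-like linker of the sarcomere (chromosome 9, 300332 to 301847), with 7 and 5 reads, abca7, from a lipid transporter, with 4 and 6, and LOC107377458, also with 4 and 6. By the same floor, obsl1b.1 was at least 2.92-fold lower, and abca7 and LOC107377458 at least 2.43-fold lower. Linear reads at the obsl1b.1 position were 144 and 69, then 115 and 71. The cut was on raw reads, of which the 14 week libraries had fewer, so it was harder to reach at 14 weeks. The most reads of a circRNA read at 14 weeks alone were 9, as in LOC107377376, with 7 and 2. Circles higher at 14 weeks had few reads. The circRNA cass4, from a Cas-family scaffold gene, had 1 and 0 reads, then 4 and 8, a ratio of 16.4 with a counting interval of 2.43 to 703. The circRNA qkia, from an RNA-binding quaking protein that in mammalian cells promotes circle formation, had 2 and 0, then 2 and 7 (ratio 6.17, counting interval 1.28 to 58.6). The circRNA pcca.2, of a mitochondrial carboxylase, had 0 and 0, then 4 and 1, at least 2.28-fold higher.

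The circular share per position compares a circle with the linear reads at its own position, and library scaling cancels in it. None of 289 positions (0%) passed in edgeR (7 unadjusted, 6 of them lower at 14 weeks), and the beta-binomial test also called 0 of 285 (31 unadjusted, 27 lower). In the ratio of circular to linear reads the median log2 change was -0.50, with 196 below 0 and 93 above. Leaving out library 1 of 14 weeks gave -0.28, and leaving out library 2 gave -0.80. Among the 10 most read, 7 had a ratio below 0 and the median was -0.24. Without library 1 of 14 weeks only 3 of these 10 were below 0, with a median of 0.22.

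Among single positions, atf7, from a stress-activated transcription factor (chromosome 13, 15921397 to 15923553), had 22 and 17 circular reads, then 3 and 2. Its linear reads were 49 and 29, then 37 and 32, so the share went from 31.0% and 37.0% to 7.50% and 5.88% (log2 -2.78, SE 1.39; unadjusted p = 0.0468 in edgeR). The circRNA asb16, from a SOCS-box protein gene, had 4 and 15 circular reads, then 0 and 1, beside 127 and 67, then 100 and 73 linear reads. The smallest share p was that of LOC107389481, with 2 and 4 circular reads against 0 and 0 (unadjusted p = 0.00511). That is the position whose linear count hardly varied between libraries. Higher at 14 weeks was ache, of acetylcholinesterase, the enzyme that ends the signal at the neuromuscular junction, with 0 and 2 circular reads, then 2 and 6, beside 127 and 107, then 64 and 73 linear reads (log2 2.58, SE 1.61).

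The authors' deposited table for this comparison lists 253 circRNAs with a p-value of a test of circular against linear counts, not labelled as adjusted. Of these, 18 (7.11%) have p under 0.05 in the authors' deposited table, and 16 of the 18 had a lower mean share at 14 weeks. The smallest p in the authors' deposited table is 0.00175 for atf7, and the smallest after Benjamini-Hochberg adjustment of that table was 0.443. Next by rank in the authors' deposited table are obsl1b.1, mylk4a.1, LOC107396123, rilpl1.1 and neb.2. For mylk4a.1 the shares were 11.5% and 11.6%, then 6.03% and 8.38%, and for neb.2, of nebulin, 0.996% and 0.924%, then 0.507% and 0.203%. For both circles the 8.5 week shares lay close together and above those of 14 weeks. In edgeR's share test their unadjusted p was 0.431 for mylk4a.1 and 0.107 for neb.2. It was 0.409 for rilpl1.1, 0.0130 for obsl1b.1 and 0.0229 for LOC107396123, and none passed after adjustment. Of the 10 smallest, 1 was higher at 14 weeks, ehd3, of a membrane-remodelling ATPase (chromosome 1, 60541958 to 60551368), with 0 and 0 circular reads, then 4 and 3. Its share was 0% in both 8.5 week libraries and 23.5% and 17.6% at 14 weeks.

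**Figure D3:**
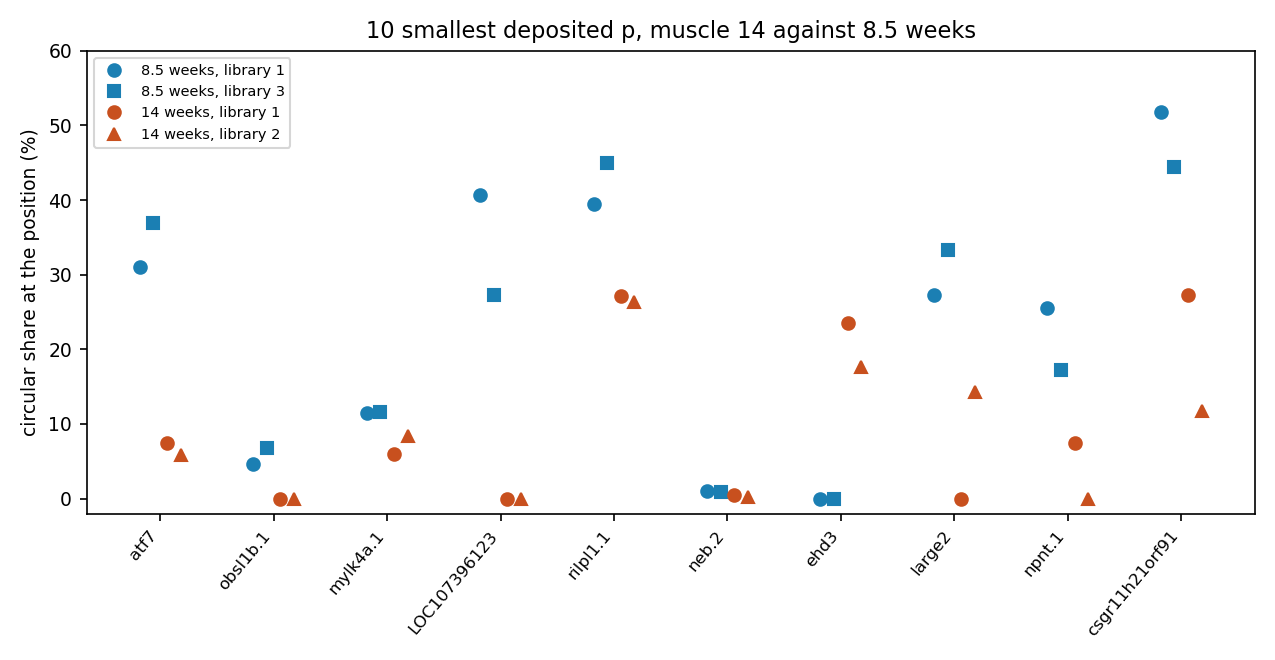
Circular share in percent in each of the 4 libraries for the 10 circRNAs with the smallest p in the authors' deposited comparison of 14 with 8.5 weeks. The ages do not overlap in any of the 10, and ehd3 alone is higher at 14 weeks; the circRNAs were picked by these shares, so the separation is no separate evidence.

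Linear reads summed per host gene give the level of the ordinary transcripts, for genes that also make circles. None of 938 hosts (0%) passed in edgeR (75 unadjusted, 38 higher and 37 lower), and DESeq2 called 1. The median log2 change was 0.06. Both 14 week libraries lay above both 8.5 week libraries in 207 hosts (22.1%) and below them in 169 (18%).

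The host nearest to the threshold was neb, encoding nebulin, the ruler of the thin filament. Its linear reads were 2361 and 1710, then 2665 and 2246, in smaller libraries. In CPM that was 19542 ± 994 and 32200 ± 1377 (SD, n = 2 each), both 14 week libraries above both of 8.5 weeks. The log2 change was 0.72 (SE 0.17, edgeR adjusted p = 0.0601). Its adjusted p was 0.0343 with DESeq2 and 0.0362 with no filter, and it was 0.249 and 0.817 without library 1 or 3 of 8.5 weeks, with a range of 2.46e-05 to 0.817 over all alternatives. At 3.5 weeks neb stood at 45431 ± 1461 CPM, so 14 weeks lay between the younger ages (log2 -1.22 from 3.5 to 8.5 weeks, sharing the 8.5 week libraries).

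Other hosts with small p and higher values at 14 weeks were capn1a, a calcium-activated protease, and larp4b, an RNA-binding protein that in mammals stabilises mRNA. Linear reads of capn1a were 45 and 35, then 69 and 56 (log2 1.08, SE 0.34, edgeR adjusted p = 0.380). Those of larp4b were 21 and 21, then 55 and 31 (log2 1.43, SE 0.46). Both were higher in each 14 week library, as were 22.1% of all hosts, while myom2a, of the M-band protein myomesin, overlapped. Like neb, capn1a and larp4b were picked by small p, so their separation is no separate evidence. The reads of myom2a were 414 and 429, then 717 and 298 (log2 0.63, SE 0.23). It was called without library 2 of 14 weeks (log2 1.02), and had a log2 of 0.065 without library 1. LOC107394958 had 0 and 0 linear reads, then 11 and 1, at least 5.42-fold higher.

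Lower at 14 weeks was LOC107395254, with 254 and 305 linear reads, then 88 and 107 (log2 -1.09, SE 0.28, edgeR adjusted p = 0.116). It passed with no filter (adjusted p = 0.0363) and without library 2 of 14 weeks, with a range of 0.0025 to 0.910 over all alternatives. The host atp1a2a, a catalytic subunit of the sodium-potassium pump that in muscle sustains excitability, had 2501 and 1854 reads, then 1216 and 883. In CPM its levels were 20936 ± 721 and 13645 ± 853, with 21712 ± 559 at 3.5 weeks (log2 -0.62, SE 0.17, edgeR adjusted p = 0.273), and 14 weeks was the age that stood apart. The host zbtb16b, a zinc-finger transcription factor, had 161 and 141 reads, then 44 and 61 (log2 -1.06, SE 0.32). Its level at 3.5 weeks was 361 ± 102 CPM, against 1467 ± 122 at 8.5 weeks and 708 ± 273 at 14 weeks. LOC107385030 had 131 and 76, then 19 and 42 (log2 -1.25), and scara5, a ferritin receptor, 22 and 49, then 8 and 9 (log2 -1.67). In all 5 the libraries of the ages did not overlap, against 18% of all hosts that were lower without overlap. These 5 were picked by small p, so their separation is no separate evidence.

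**Figure D4:**
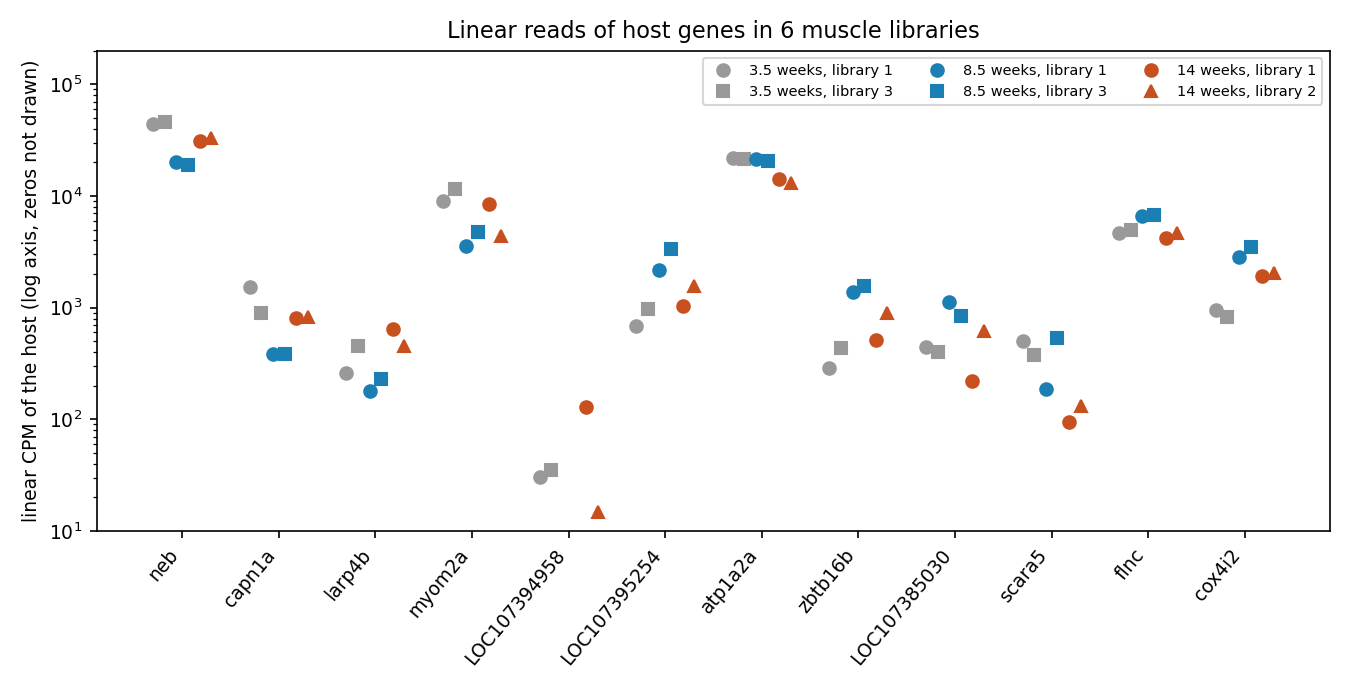
Linear CPM on a log axis in each of 6 muscle libraries for the 5 hosts with the smallest p in each direction, and for flnc and cox4i2. For neb the 14 week libraries lie between those of 8.5 and 3.5 weeks, and for atp1a2a they lie below both younger ages; 0 counts of LOC107394958 at 8.5 weeks are not drawn.

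Linear and circular reads lay on opposite sides of 0 in the list of thick, thin and titin filament hosts, which includes the kinase gene mylk4a. Hosts of the Z-disc and M-band, also parts of the sarcomere, lay on both sides of 0 in linear reads. All 7 hosts of the thick, thin and titin filament list had a linear log2 change above 0 (median 0.31, against 0.06 over all hosts), and in 4 of the 7, against 22.1% over all hosts, both 14 week libraries lay above both 8.5 week libraries. None of the 7 passed the test. All 7 tested circRNAs of the list had a log2 below 0, as had 207 of all 292 (median -0.75, against -0.56 over all circRNAs). In 6 of the 7, against 30.5% over all circRNAs, both older libraries lay below both younger ones. Again none passed. The circular to linear ratio was below 0 for all 7 (median -1.23, against -0.50), and so it was in each fit with a library left out. With factors from the circular reads, 5 of the 7 circRNAs were below 0, and with linear totals or DESeq2 size factors 6 of the 7 hosts were above 0.

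Beside neb and ttn.1, the list held the second titin gene, ttn.2, with 14716 and 12207 linear reads, then 12814 and 11789 (log2 0.31, SE 0.14). Its circle ttn.2.3 had 4 and 4 reads, then 2 and 1. The host mybpc2b, of fast myosin-binding protein C, had 2890 and 2542 linear reads, then 2991 and 2183 (log2 0.35, SE 0.17), and its circle had 8 and 7, then 5 and 5. For nebulin, the circle neb.2 (chromosome 9, 24536740 to 24537742) had 16 and 11 reads, then 9 and 3, while linear reads at the position were 1591 and 1179, then 1765 and 1478. Whether the paired titin genes share reads was not tested.

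**Figure D5:**
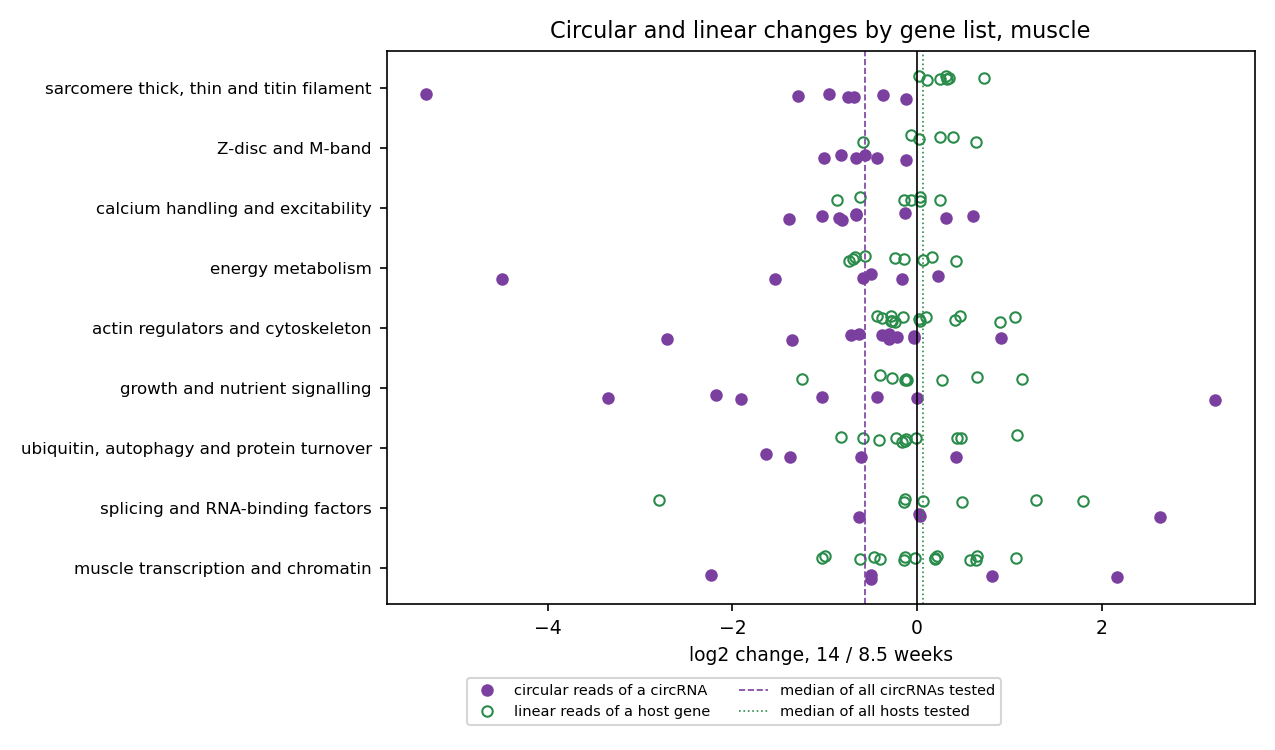
Log2 change from 8.5 to 14 weeks of circRNAs (filled, circular reads) and host genes (open, linear reads) for gene lists with 4 or more tested circRNAs. Lines mark 0 and the medians over all tested, -0.56 for circular and 0.06 for linear reads. The thick, thin and titin filament list has all its linear values above 0 and all its circular values below.

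Proteins of the Z-disc and M-band anchor and cross-link the filaments. All 6 tested circRNAs of that list were below 0 (median -0.61, near the -0.56 over all), 2 of them without overlap, close to the 30.5% over all circRNAs, and of its 6 hosts 4 were above 0 and 2 below. Filamin C linear reads were 773 and 614, then 360 and 319 (log2 -0.59, SE 0.21), lower in both 14 week libraries. The circles flnc.1 (20 and 9, then 3 and 8) and flnc.4 (10 and 2, then 2 and 3) had log2 changes of -0.82 and -0.66. The log2 change of the ratio to linear reads was -0.02 for flnc.1, -0.02 for flnc.2 and 0.0067 for flnc.4. The estimated changes of these circles were thus close to those of the linear reads at their positions. In CPM flnc.1 and flnc.4 overlapped between the ages. The myotilin circle myot.2 had 38 and 38 reads, then 16 and 21 (log2 -0.56), while myotilin linear reads were near level (log2 0.02, SE 0.28).

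For calcium handling and excitability, 7 of 9 tested circRNAs were below 0, against 207 of 292 over all (median -0.66), 4 of them lower without overlap, against 30.5% over all, and 4 of 7 hosts were below 0 in linear reads. The 3 circles of the muscle sodium channel gene scn4aa all had log2 changes below 0, from -1.39 to -0.13, on 2 to 12 reads an age, beside a linear change of 0.03. The sodium pump circle atp1a2a.2 had 30 and 33 reads, then 20 and 10 (log2 -0.66), close to its linear change, while atp1a2a.1 had 6 and 3, then 6 and 4 (log2 0.61). The circle of atp2a2a, the slow calcium pump, had 64 and 31 reads, then 12 and 24, beside 62 and 33, then 17 and 20 linear reads. Its circular reads overlapped between ages in CPM, while its linear reads did not.

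Of 9 energy metabolism hosts 6 had a linear log2 below 0, against 434 of 938 over all (median -0.23), and 4 were lower without overlap, against 18% over all hosts. None of the 9 passed the test. The list's summed linear CPM overlapped between the ages, with 85130 and 97821, then 91089 and 75283. Its host with the most linear reads, ak1, had a linear log2 of -0.15 (SE 0.16). Linear reads of cox4i2 were 335 and 315, then 165 and 139 (log2 -0.67, SE 0.25). Those of ppargc1a, the coactivator of mitochondrial genes, were 92 and 45, then 34 and 27 (log2 -0.69, SE 0.42), and those of cpt1b, which admits fatty acids to mitochondria, 87 and 63, then 45 and 30 (log2 -0.56). In contrast mcu, the mitochondrial calcium uniporter, had 38 and 27, then 35 and 29 linear reads (log2 0.42), and its circle 6 and 1, then 0 and 0, at least 1.70-fold lower. Of 6 tested circRNAs 5 were below 0. The adenylate kinase circle ak1 had 10 and 8 reads, then 0 and 4.

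None of the 3 hosts of translation and RNA modification passed the test, and all 3 were lower at 14 weeks without overlap, against 18% over all hosts (median -0.61). These were nsun4 with 89 and 77 linear reads, then 53 and 29, eif3l with 49 and 47, then 32 and 10, and the RNA demethylase gene fto with 73 and 57, then 21 and 41. Of the growth list, 5 of 7 circRNAs were below 0, 1 above, and akt2 had 0 reads in all 4 libraries. In 2 of the 7, against 30.5% over all circRNAs, both 14 week libraries lay below both 8.5 week libraries. Growth hormone receptor circles were counted at 4 positions, of which ghrb.2 and ghr.1 overlapped. The circle ghr.1, with 2 and 4 reads, then 3 and 0, had too few reads to be tested. The circle ghrb.1 had 9 and 28 reads, then 2 and 4 (log2 -2.17), ghr.2 had 11 and 7, then 2 and 4, and ghrb.2 had 2 and 8, then 5 and 1. In the ubiquitin and turnover list 3 of 4 circles were below 0. Its chaperone host hspa8 had 3962 and 2961 linear reads, then 2766 and 1201 (log2 -0.41, SE 0.18). In CPM, library 1 of 14 weeks was near the 8.5 week level of hspa8 and library 2 was lower. The list's summed linear CPM showed the same, with 38226 and 36896, then 36417 and 21889.

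Of the splicing and RNA-binding list 1 of 4 tested circRNAs, mbnl1, was below 0 in circular reads, against 207 of 292 over all. In the ratio of circular to linear reads 3 of the 4 were below 0, hnrnpm at -1.69, mbnl1 at -1.17 and srsf7 at -0.14, and the list's median was -0.65, against -0.50 over all. Beside qkia, the tested circles were hnrnpm (9 and 2 reads, then 0 and 7), srsf7 (7 and 7, then 3 and 7) and mbnl1 (5 and 8, then 2 and 4). Of its 7 hosts 4 were above 0, among them the splicing repressor ptbp1, with 9 and 1 linear reads, then 12 and 13 (log2 1.80, SE 0.83). Of the actin list 10 of 11 circRNAs were below 0, against 207 of 292 over all. The list's median of -0.31 was nearer to 0 than the -0.56 over all. Its circle tln2a.2, of the adhesion linker talin, had 1 and 6 reads, then 3 and 7. In the muscle transcription list 3 of 5 circRNAs were below 0. There the lipid-sensing receptor host pparab had 108 and 71 linear reads, then 41 and 25 (425 ± 78.6 CPM at 14 weeks against 854 ± 102), and the muscle activator host mef2ca 558 and 476, then 474 and 411 (log2 0.21). None of these passed the test.

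The direction of several lists depended on the scaling. With factors from the circular reads, circRNAs below 0 numbered 4 of 6 for the Z-disc and M-band, 6 of 9 for calcium handling, 3 of 6 for energy metabolism, 4 of 7 for growth, 4 of 11 for actin and 1 of 5 for muscle transcription. The splicing and ubiquitin counts were as before. With linear totals or DESeq2 size factors, linear reads were below 0 in 6 of 7 calcium hosts, 9 of 14 actin hosts and 3 of 6 Z-disc and M-band hosts, and the energy and translation counts were as before.

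Markers of other cell types overlapped between the ages in sum, while the muscle-defining hosts did not. The muscle-defining hosts summed to 253710 and 260907 linear CPM at 8.5 weeks and 287656 and 312048 at 14 weeks. They include ttn.1, ttn.2 and neb, which are also in the thick, thin and titin filament list. Markers of endothelium and fibroblasts, cdh5 and postn, summed to 4785 and 5178 linear CPM at 8.5 weeks and 7487 and 5007 at 14 weeks, and library 1 of 14 weeks was the highest. The adipocyte and skin marker dsp was at 129 and 154 CPM, then 211 and 88.6. Neuron and Schwann cell markers were at 111 and 242, then 129 and 310, with snap25 and syt1 the tested ones. The part of muscle fibres or of these other cell types in the differences above was not tested. In whole tissue, fewer cells of a type and less RNA per cell cannot be told apart.

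Circular and linear changes were compared gene by gene for the 271 tested circRNAs with a tested host. In 182 the circle's log2 change was below that of its host's linear reads, and in 164 to 194 with a library of 8.5 or 14 weeks left out. With factors from the circular reads it was 127, so this count too describes the bulk. Summed per host, circular reads gave 0 calls among 262 hosts (0%), 2 unadjusted, with a median of -0.59. The smallest p beyond those already described was that of LOC107387174, with 2 and 11 circular reads, then 0 and 0, at least 3.16-fold lower. Circles with both ends in annotated exons had a median of -0.63, with 165 of 227 below 0. The 22 with both ends outside had a median of -0.25, with 13 below 0.

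Whether the step from 8.5 to 14 weeks differs between muscle and brain was tested in a fit of all 15 libraries. The interaction called 0 of 896 circRNAs (0%, 21 unadjusted, DESeq2 0) and 0 of 1242 hosts for linear reads (0%, 162 unadjusted, DESeq2 0, smallest adjusted p 0.202). Nothing described here is therefore shown to be particular to muscle. For LOC107396123 the interaction on circular reads was -6.93 log2 (unadjusted p = 0.0274, adjusted 1.00) and for unannotated.102 it was -2.60 (0.0313). The lowest p was that of nedd4, a ubiquitin ligase, with -5.65 (SE 2.12, unadjusted p = 0.00768, adjusted 1.00). In muscle its circle had 13 and 6 reads, then 1 and 3, and in brain its log2 change was 4.07. For larp4b linear reads the interaction was 1.57 (SE 0.49, edgeR adjusted p = 0.202). The linear interactions lay above 0 as a whole, with a median of 0.39, 845 hosts above 0 and 397 below. Of the 162 unadjusted, 143 were above 0, so the larp4b value is in part that of the bulk.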

How the data were processed

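Per the file headers, the authors' deposited tables hold, for 1810 positions, whole-number counts of circular and of linear reads, with hosts and a junction type code. A further deposited table gives a p-value per circRNA under the name bbTest. STAR 2.5.2b was used, per the submitters' processing notes. Not given in the sources used here are the circRNA caller, the genome build and what counted as a linear read, so coordinates are those of the deposited files. No deposited column belonged to another sample.

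CircRNAs are named by host, with a number where a host has several. The files themselves name 705 of 1262 hosts, the RefSeq gene table of NfurGRZ-RIMD1 (whose coordinates were not used) named another 339, and 218 appear by identifier. The members, gene lists and rule for named genes were chosen with earlier results of these data known. The rule takes the 10 most read circRNAs, the 5 smallest p per direction of each test where fewer than 3 pass, circRNAs with 10 or more reads at one age and 0 at the other, hosts with 3 or more tested circRNAs, circRNAs called at 8.5 against 3.5 weeks, up to 4 members per list, and the 10 smallest deposited p. Members named beyond it were chosen after their values were seen.

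Tests on counts were the quasi-likelihood F tests of edgeR 4.0.16 (R 4.3.3) with Benjamini-Hochberg adjustment at 0.05 in 1 fit of 6 muscle libraries, contrast 14 minus 8.5 weeks, for features with 10 or more reads. The linear counts gave library sizes and TMM factors, and CPM is on that scale. For the share, each library entered with a circular and a linear column and a term of its own. The SE is the log2 change divided by the root of its F value. Positions of 1 host can share reads, so a host sum can count a read more than once. Totals used exact permutation tests. DESeq2 1.42.0, a beta-binomial test, other scalings and filters, fits without 1 library and a replicate block were alternatives. Scripts were tested on simulated data.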

Additional observations from a re-analysis of the deposited data

How the results depend on the processing

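Circular reads per circRNA and per host, the circular share and the tissue difference had 0 calls in edgeR in the main fit and in every alternative run, DESeq2 and the beta-binomial test included where run. For linear reads per host, 0 calls became 1 with DESeq2, 1 without the near-constant positions (an alternative chosen after seeing the data), 2 with no filter and 2 with a minimum of 100 reads. Leaving out a library gave 0 to 9 calls, 9 without library 1 and 6 without library 2 of 14 weeks, where the lone library is assumed to vary like the other groups. The cause was not tested. The replicate number as a block gave 4 calls. The 8.5 and 14 week libraries share number 1 alone. Deviations of same-numbered libraries correlated at -0.092 (8.5 and 14 weeks) and 0.0075 (3.5 and 8.5 weeks). Each value rests on 1 pair of libraries with few reads per circRNA, so it cannot tell whether the numbers pair the samples. Detection after thinning changed sign, from 11.7 circRNAs more at 14 weeks to -15.3 and -2.26 without library 3 of 8.5 weeks or library 2 of 14 weeks, with 38.7 as the highest. The total share difference kept its sign throughout.

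Of 1542 alternative values for 114 named results, 1482 were classed as the same, 37 as moved and 17 as stronger. No main fit had a call, so keeping to that side of the threshold says little. Directions near 0 are not secured by these counts. With factors from the circular reads the median of all tested circRNAs went from -0.56 to -0.06. The remaining 6 values were classed as reversed. These were flnc.2 circular reads (0.063 with TMM of the circular counts), the unannotated.21 share (-0.24 without library 1 of 14 weeks, -0.24 to 5.02 with a library left out), tiam2 circular reads per host (-2.06 without library 1 of 14 weeks, -2.06 to 4.78), nfatc3 linear reads (-0.15 without library 2 of 14 weeks, -0.15 to 1.05, and -0.14 with the replicate block) and postn linear reads (-0.048 without library 1 of 14 weeks, -0.048 to 0.60). A median of 5 reads per circRNA limits the precision of single circles.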
